A study of Mus musculus with 6 samples.

Results

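Mitochondrial ribosomal protein genes encode, in the nucleus, the protein subunits of the ribosome that works inside mitochondria. The members were the rows of the deposited gene table whose symbol is Mrpl (large subunit) or Mrps (small subunit) followed by a number and, at most, a letter from a to c. The rule found 78 of 16906 genes, 49 with a large subunit symbol and 29 with a small subunit symbol, and used no measured value. All 78 passed the filter on low counts, under which 12892 genes were tested. Bone marrow-derived macrophages of wild-type C57BL/6 mice had been grown for 7 days in medium with 10% serum and macrophage colony-stimulating factor at 10 ng/ml. They were then given exosomes, small membrane vesicles shed by cells, at 100 μg/ml for 12 h. The vesicles of the 3 libraries called stretched here were shed by epithelial cells under 6 h of cyclic stretch. Those of the 3 libraries called static were shed by unstretched epithelial cells. Both groups therefore received exosomes, and macrophages without exosomes were not analysed here. The labels give neither the tissue nor the species of the epithelial cells, and do not say whether each replicate is an animal or a culture of its own; p-values here therefore cover the spread between libraries, which may be technical.

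The mitochondrial ribosome translates the few proteins that mitochondrial DNA encodes, which are core subunits of the respiratory chain and of the ATP synthase. Its RNAs are made in the mitochondrion, while every protein of it is made in the cytosol and imported. The large subunit holds the peptidyl transferase centre and the stalk that recruits elongation factors, and the small subunit decodes the messenger RNA. About the gene promoters it is known that many nuclear genes for mitochondrial proteins carry sites for NRF1, for the ETS factor GABP and for YY1. In macrophages, mitochondrial metabolism is known to be remodelled on activation.

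The libraries held between 16984561 and 17625991 estimated counts, of which the 78 members together took 0.143, 0.116 and 0.159% in the stretched libraries and 0.223, 0.212 and 0.183% in the static libraries. All 10 macrophage markers were detected, with summed levels of 16895 to 33163 CPM (counts scaled by the library's total alone in this paragraph). Static 3 stood apart from its group: across tested genes its log2 levels correlated with static 1 and static 2 at 0.95 and 0.954, against 0.991 between those libraries. All 16 neutrophil markers and 10 of 11 monocyte markers were higher in static 3 than in both other static libraries, none of them at 0 in all libraries. The same held for 8 of 10 mast cell and basophil, 9 of 11 lymphocyte, 8 of 10 dendritic cell and 8 of 10 stromal markers. Their sums did not all follow. In static 3 against static 1 and static 2 the mast cell and basophil sum was 257 against 67.6 and 92.7 CPM, and the stromal sum 6661 against 5181 and 4647. The lymphocyte sum was 141 against 103 and 130 CPM, and the dendritic cell sum was lower, 91.7 against 130 and 149. The summed neutrophil markers were at 16729 CPM in static 3, 4938 and 6790 in the other static libraries, and 6288 to 11770 in the stretched libraries. The summed monocyte markers were at 4410 in static 3, 1380 and 1837 in the other static libraries, and 2359 to 3313 in the stretched libraries. Between the groups, 9 of 10 stromal markers had positive log2 fold changes (median 0.37), of which edgeR called 0, DESeq2 3 and edgeR with the replicate block 3, with 3 higher in edgeR before adjustment (p under 0.05). Their summed levels were 4944 to 8038 CPM in the stretched and 4647 to 6661 CPM in the static libraries. Of the other lists edgeR called higher Mertk (macrophage), Lcn2 (neutrophil), Nr4a1 (monocyte), Ccr7 (dendritic cell), Il7r (lymphocyte) and Epcam (epithelial). It called Ms4a1 (lymphocyte) lower. These genes do not stand for their lists. Negative values were held by 11 of 16 neutrophil (median -0.23), 6 of 9 dendritic cell (-0.18) and 5 of 9 lymphocyte markers (-0.42). Among macrophage and monocyte markers 5 of 10 (median 0.016) and 5 of 11 (0.073) were negative. The 2 tested epithelial markers were positive. With the replicate block Mertk and Epcam lost the call (edgeR adjusted p = 0.056 and 0.0605). All 8 tested mast cell and basophil markers had positive values (median 0.26), with 0 called. Over all tested genes edgeR called 6.55% higher and 5.38% lower. The part of these cells in the results was not tested, and in bulk RNA fewer cells of a type cannot be told apart from less RNA per cell. Counts of calls, and single members in which static 3 decided the call, are given with and without it.

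Promoters of members, which lie on 17 chromosomes, are shown first. Whether the promoters bear on the fold changes was not tested. The set is 4 of the 10 genes called lower below, picked by no stated rule among those that hold a match. The sequences are from the RefSeq promoter table (build GRCm38.p6, 250 bases before to 50 after the start site, on the gene's strand, 5′ to 3′). Capitals mark matches to motifs of NRF1 (GCGCATGC, GCGCACGC or GCGCGTGC), ETS factors (CCGGAAG) and YY1 (AAGATGGC), each searched on both strands. The Mrps18b promoter lies at chr17:35916391-35916690 on the minus strand. The promoters of Mrpl9 at chr3:94443086-94443385, Mrps27 at chr13:99344536-99344835 and Mrpl3 at chr9:105053018-105053317 lie on the plus strand.
Mrps18b: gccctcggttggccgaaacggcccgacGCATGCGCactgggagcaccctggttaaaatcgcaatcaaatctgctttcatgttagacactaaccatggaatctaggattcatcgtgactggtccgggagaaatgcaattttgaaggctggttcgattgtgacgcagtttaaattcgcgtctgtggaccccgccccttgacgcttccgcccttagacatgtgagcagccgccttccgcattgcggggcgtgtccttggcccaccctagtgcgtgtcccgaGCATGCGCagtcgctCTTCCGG
Mrpl9: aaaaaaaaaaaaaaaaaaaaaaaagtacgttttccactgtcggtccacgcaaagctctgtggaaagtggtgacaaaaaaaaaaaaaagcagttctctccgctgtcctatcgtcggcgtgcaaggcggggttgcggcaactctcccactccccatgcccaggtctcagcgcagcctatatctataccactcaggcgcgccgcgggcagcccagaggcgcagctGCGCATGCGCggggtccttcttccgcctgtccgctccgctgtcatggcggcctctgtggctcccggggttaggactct
Mrps27: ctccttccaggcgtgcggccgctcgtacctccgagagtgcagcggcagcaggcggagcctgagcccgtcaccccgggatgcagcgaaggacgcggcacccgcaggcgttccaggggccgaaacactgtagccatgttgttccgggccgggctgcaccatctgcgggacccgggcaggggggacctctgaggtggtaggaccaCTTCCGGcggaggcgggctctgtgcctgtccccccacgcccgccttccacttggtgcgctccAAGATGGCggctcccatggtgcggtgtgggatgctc
Mrpl3: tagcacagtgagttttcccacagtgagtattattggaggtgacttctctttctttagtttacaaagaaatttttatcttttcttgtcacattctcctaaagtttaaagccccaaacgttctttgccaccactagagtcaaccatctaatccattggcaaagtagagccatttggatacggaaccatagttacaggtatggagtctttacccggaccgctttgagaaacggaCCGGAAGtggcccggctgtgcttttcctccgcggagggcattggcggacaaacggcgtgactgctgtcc
Mrps18b held 2 NRF1 matches and an ETS match, Mrpl9 held 2 overlapping NRF1 matches that form a palindrome, Mrps27 held an ETS and a YY1 match, and Mrpl3 held an ETS match. Of the called genes not printed, Mrps7 held a YY1 match, Mrps23 an ETS match and Mrpl20 an E-box (CACGTG).

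Over the 69 members with a promoter in that table, 26 (37.7%) held the ETS motif, against 19.7% of 10277 tested genes and 9.93% of all 27025 genes in the table. The YY1 motif was in 12 member promoters (17.4%), against 5.18% of tested genes and 3.19% of all. The NRF1 motif was in 14 (20.3%), against 14.4% and 7.4%, and 13 of these were among the 43 large subunit promoters and 1 among the 26 small subunit promoters. An E-box (CACGTG) was in 5 members (7.25%), against 11.6% of tested genes and 8.09% of all, and a TATAAA box was in 5 (7.25%), against 8.96% and 15.7%. Median GC content was 58.0% for members and 60.7% for tested genes. Of the 10 genes called lower, 4 held the ETS motif, 2 the NRF1 motif, 2 the YY1 motif, 1 the E-box and 0 the TATA box, and 3 (Mrpl12, Mrps2 and Mrps30) held no match to any of the motifs searched. These counts describe letters in a window of 300 bases and carry no test.

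In the stretched group, transcripts of the mitochondrial ribosome were mostly lower. In all, 10 members passed edgeR's quasi-likelihood test with Benjamini-Hochberg adjustment over all tested genes (adjusted p under 0.05), all of them lower: Mrpl3, Mrpl9, Mrpl12 and Mrpl20 of the large subunit symbols and Mrps2, Mrps7, Mrps18b, Mrps23, Mrps27 and Mrps30 of the small subunit symbols. That is 12.8% of members, against 5.38% of all tested genes called lower. No member was called higher, against 6.55% of all tested genes; Mrpl14 alone was higher at an unadjusted p under 0.05 and was called higher by DESeq2. The direction was shared more widely than the calls: 72 of 78 members had a negative log2 fold change (92.3%), against 50.2% of tested genes. The median log2 fold change was -0.42 for members and -0.002 for all tested genes. This fit held no replicate block. With the replicate number as a block edgeR called 1 member lower, against 3.16% of all tested genes.

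The large subunit had 4 of 49 members called lower with a median log2 fold change of -0.35, and the small subunit 6 of 29 with a median of -0.46. At an unadjusted p under 0.05, 36 members were lower (18 of each subunit) and 1 (Mrpl14) was higher, where 15.2% of all tested genes were lower and 16.5% higher. DESeq2 called 25 members lower, 15 large and 10 small, and 1 higher, where it called 9.96% of all tested genes lower and 10.8% higher. In 37 members every stretched library was below every static library (20 large, 17 small), and in 2, Mrpl14 and Mrpl24, every stretched library was above. Over all tested genes these shares were 18.2% and 18.5%.

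The number of calls turned on single libraries while the direction did not. Without static 3, 38 members were called lower, among them all 10 named above, where 15.4% of all tested genes were, and the median log2 fold change of members was -0.52. Without stretched 3 and static 3 together, 50 members were called lower, against 20.6% of all tested genes. Leaving out stretched 1, stretched 2, static 1 or static 2 left 0 members called by edgeR, with 31, 23, 21 and 24 lower at an unadjusted p under 0.05; these fits called 0.214%, 0.0229%, 0.184% and 0.0% of all tested genes lower. Leaving out stretched 3 left 1, Mrpl50 (log2 fold change -0.81, adjusted p = 0.0402), where 1.98% of all tested genes were called lower. The median of members stayed between -0.34 and -0.52 in these 6 fits. With the replicate number as a block, edgeR called 1 member, Mrps2, where it called 3.16% of all tested genes lower. Scaling by library size alone gave 23 members lower (10.1% of all tested genes), and limma on log2(FPKM + 1) and log2(FPKM + 0.1) gave 17 (9.28%) and 19 (9.33%).

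**Figure D1:**
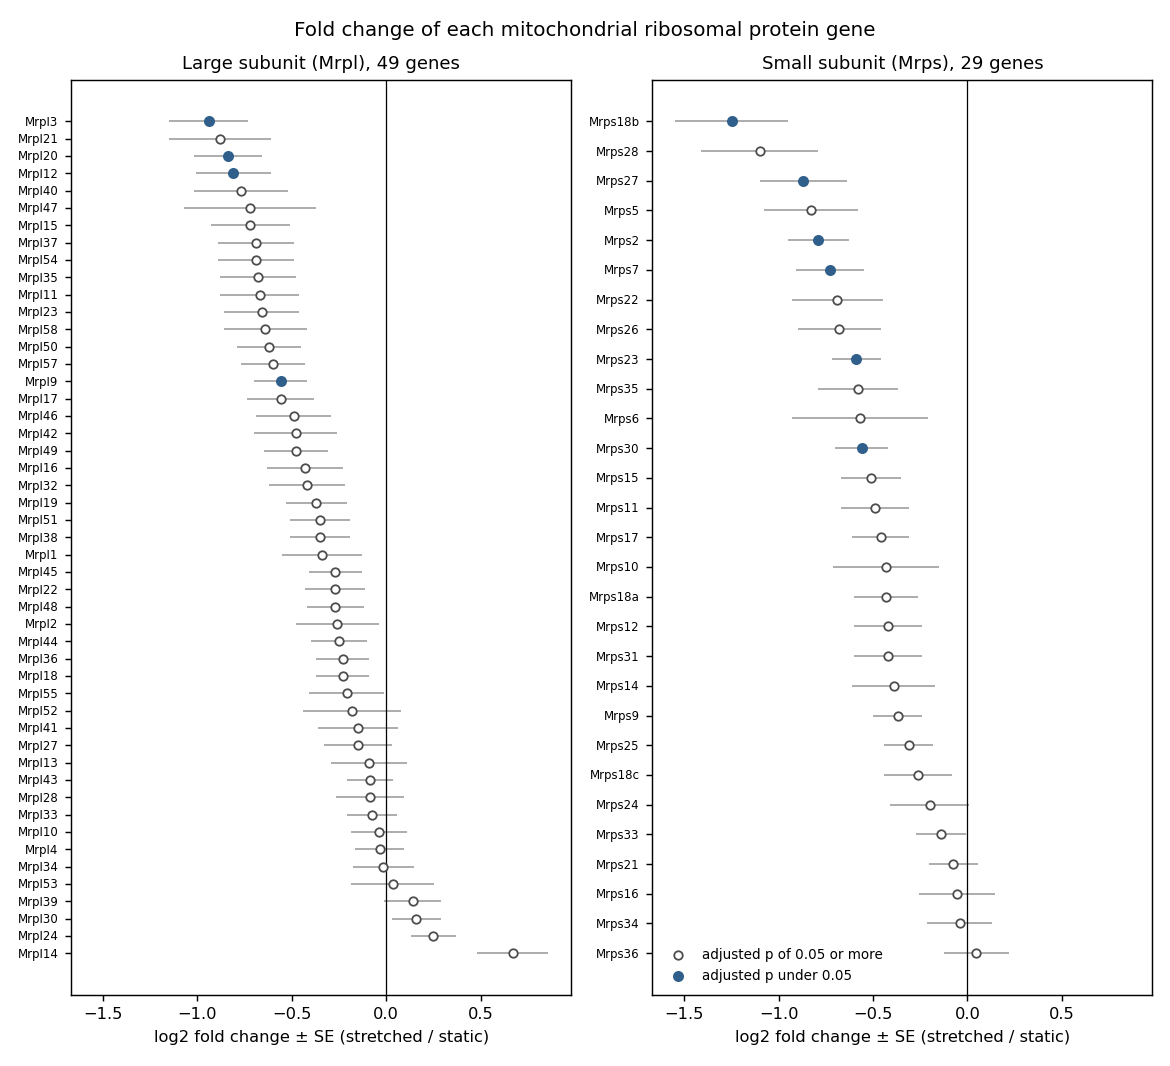
Log2 fold change (stretched over static, horizontal axis) with its standard error for each of the 49 large and 29 small subunit genes, ordered by value; filled points have an edgeR adjusted p under 0.05. All but 6 points lie left of 0, and Mrpl14, at 0.67, lies farthest to the right.

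Levels are given below as CPM on TMM-scaled library sizes, by replicate number, the stretched libraries first and then the static ones, and gene positions are those of GENCODE on build GRCm38. Among the large subunit genes with a bacterial counterpart, Mrpl3, whose protein reaches towards the peptidyl transferase centre (gene at chr9:105053268-105077466), was at 26.2, 19.3 and 25.1 CPM in the stretched libraries and 49.0, 52.7 and 33.5 in the static libraries. Every stretched value was below every static value, and static 3 was the lowest static library. The means were 23.5 ± 3.68 and 45.1 ± 10.2 (SD, n = 3 each), and the log2 fold change was -0.94 ± 0.21 (SE; edgeR adjusted p = 0.0341). With the replicate block the adjusted p was 0.0587.

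Mrpl20, the counterpart of a bacterial protein that binds the ribosomal RNA early in assembly (chr4:155802878-155808831), was at 27.1, 20.1 and 27.7 CPM and at 49.1, 48.1 and 37.4 CPM. The groups did not overlap, and stretched 2 was again the lowest library. Its log2 fold change was -0.84 ± 0.18 (edgeR adjusted p = 0.0314, and 0.0537 with the replicate block). Mrpl12, the stalk protein that is also known to bind the mitochondrial RNA polymerase (chr11:120484637-120488754), was at 26.1, 16.1 and 22.8 CPM and at 42.4, 38.5 and 33.6 CPM. Stretched 2 was the lowest of all libraries and the groups did not overlap. The log2 fold change was -0.81 ± 0.20 (edgeR adjusted p = 0.0425, and 0.0503 with the block).

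Mrpl9, the counterpart of bacterial L9 (chr3:94443154-94448708), was at 16.8, 15.7 and 16.1 CPM and at 26.9, 23.6 and 21.1 CPM. The stretched libraries were close together and all below the static ones, with a log2 fold change of -0.56 ± 0.14 (edgeR adjusted p = 0.0473, and 0.0708 with the block). Besides Mrpl12, the proteins of the stalk and its base differed in size of change. Mrpl11 had a log2 fold change of -0.67 (edgeR adjusted p = 0.0727) and Mrpl10 of -0.039 (0.889). Mrpl10 was at 32.5 to 38.4 CPM in the stretched and 30.4 to 41.5 CPM in the static libraries, so the groups overlapped fully.

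Among the small subunit genes, Mrps2, the counterpart of bacterial S2 (chr2:28465951-28471177), was the member with the smallest p. It was at 26.8, 18.6 and 22.9 CPM and at 40.4, 41.0 and 37.2 CPM. Here static 3 lay near the other static libraries, and the groups were far apart relative to their spread. The means were 22.8 ± 4.10 and 39.5 ± 2.03 (SD, n = 3 each), and the log2 fold change was -0.79 ± 0.16 (edgeR adjusted p = 0.0279). It was the member still called with the replicate block (adjusted p = 0.0442). Mrps7, a protein of the head of the small subunit (chr11:115604140-115608036), was at 18.5, 14.4 and 19.6 CPM and at 30.8, 31.8 and 24.4 CPM, with no overlap. Its log2 fold change was -0.73 ± 0.18 (edgeR adjusted p = 0.0408, and 0.0727 with the block).

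Mrps18b was the member with the largest fall (chr17:35910380-35916440). It is a paralog of the bacterial S18 protein and has a place of its own in the mitochondrial small subunit. It was at 21.5, 15.4 and 18.5 CPM and at 54.9, 51.9 and 25.2 CPM, so that static 3 lay far below the other static libraries and still above every stretched library. The means were 18.4 ± 3.05 and 44.0 ± 16.4 (SD, n = 3 each), and the log2 fold change was -1.25 ± 0.30 (edgeR adjusted p = 0.0393, and 0.0538 with the block). Without static 3 it was -1.53 (adjusted p = 0.00292).

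The other S18 paralogs did not pass the test with all libraries. Mrps18a was at 22.3, 23.9 and 22.1 CPM and at 35.0, 33.5 and 23.7 CPM, and static 3 fell inside the stretched range (log2 fold change -0.43, edgeR adjusted p = 0.133). Without static 3 Mrps18a passed (-0.59, adjusted p = 0.0104). Mrps18c was at 14.6, 15.5 and 18.9 CPM and at 21.0, 21.9 and 15.8 CPM, again with static 3 among the stretched values (-0.26, adjusted p = 0.368, and -0.40 with 0.0853 without static 3). The difference between the paralogs was not tested.

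Mrps27, a pentatricopeptide repeat protein (chr13:99344767-99415562), was at 11.9, 9.53 and 12.9 CPM and at 25.7, 22.1 and 15.2 CPM. The groups did not overlap, and the log2 fold change was -0.87 ± 0.23 (edgeR adjusted p = 0.0491, and 0.0795 with the block). Mrps23, like Mrps27 a protein without a bacterial counterpart (chr11:88194106-88211507), was at 19.9, 22.6 and 22.4 CPM and at 32.9, 34.3 and 30.7 CPM. Its libraries were tight in both groups, and its log2 fold change was -0.59 ± 0.13 (edgeR adjusted p = 0.0314, and 0.0557 with the block). Mrps30, which carries a small subunit symbol although its protein lies in the large subunit (chr13:118380110-118387252), was at 19.4, 16.4 and 17.8 CPM and at 27.5, 28.3 and 23.3 CPM. The groups did not overlap, with a log2 fold change of -0.56 ± 0.14 (edgeR adjusted p = 0.0472, and 0.0747 with the block).

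**Figure D2:**
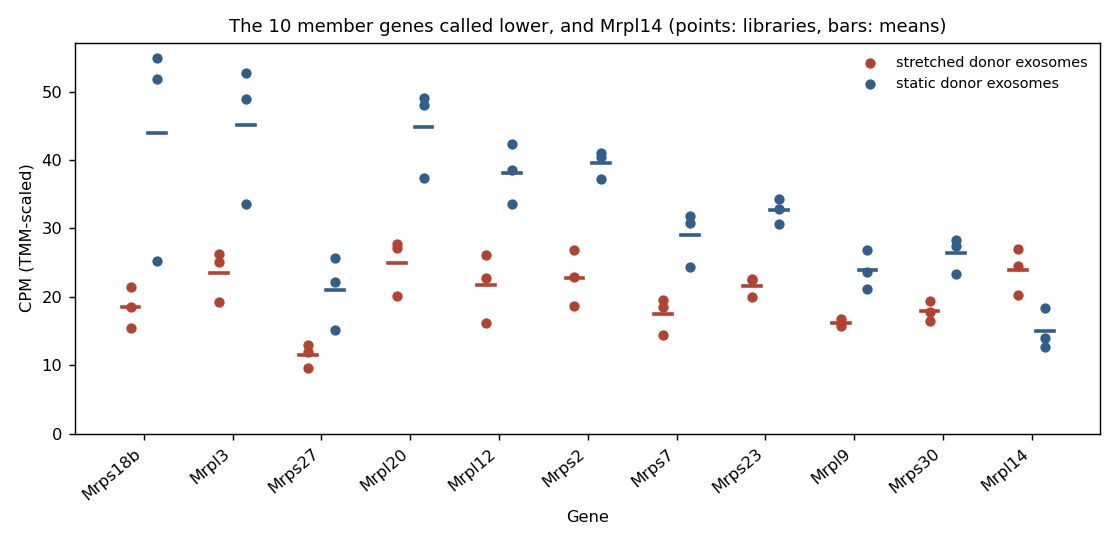
CPM (vertical axis) in the 3 stretched and 3 static libraries for the 10 genes called lower and for Mrpl14, with points for libraries and bars for group means. The groups do not overlap for any of these genes, and Mrpl14 is the one with the stretched libraries on top.

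Mrpl14, a protein at the interface of the subunits that is known to bind the assembly factor Malsu1 (chr17:45685722-45698495), went the other way. It was at 20.2, 27.0 and 24.5 CPM in the stretched libraries and 14.0, 12.6 and 18.4 CPM in the static libraries. Every stretched library was above every static library, with a log2 fold change of 0.67 ± 0.19. It missed the edgeR threshold (adjusted p = 0.0622) and passed in DESeq2 (0.0287) and in edgeR without static 3 (0.0122); over 15 alternatives the adjusted p ran from 0.0122 to 0.22. Malsu1 itself had a log2 fold change of 0.064 (edgeR adjusted p = 0.853).

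The other members with positive values were Mrpl24 (0.25), Mrpl30 (0.16), Mrpl39 (0.14), Mrps36 (0.048) and Mrpl53 (0.036), with edgeR adjusted p-values from 0.216 to 0.929. Mrps36 is known as a subunit of the oxoglutarate dehydrogenase complex rather than of the ribosome, and was at 13.2 to 16.6 CPM in the stretched and 12.1 to 15.5 CPM in the static libraries. With scaling by library size alone 4 of the 6 positive members turned negative, Mrpl30 (-0.029), Mrpl39 (-0.06), Mrpl53 (-0.15) and Mrps36 (-0.14), and Mrpl14 and Mrpl24 stayed positive (0.47 and 0.06); under that scaling the median of all tested genes shifted to -0.19.

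Several large negative values missed the threshold. Mrps28 was at 5.90, 3.61 and 5.35 CPM and at 13.2, 11.8 and 6.86 CPM, the second largest difference (log2 fold change -1.10, edgeR adjusted p = 0.0582). Mrpl21 was at 8.73, 7.96 and 8.69 CPM and at 18.3, 19.0 and 9.47 CPM (-0.88, adjusted p = 0.0742). In both genes static 1 and static 2 stood well above the stretched libraries and static 3 only just above them. Without static 3 both were called lower, Mrps28 with -1.33 (adjusted p = 0.00915) and Mrpl21 with -1.14 (0.00367). Mrpl58, a peptidyl-tRNA hydrolase built into the large subunit, had -0.64 (edgeR adjusted p = 0.0942, and 0.0274 without static 3), and Mrpl32, which the protease Afg3l2 is known to process during assembly, had -0.42 (0.195, and 0.0126 without static 3).

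Mrps6 differed from the rest in static 3. It was at 8.58 to 11.3 CPM in the stretched libraries and at 10.3 and 10.2 CPM in static 1 and static 2, and at 24.6 CPM in static 3. Its log2 fold change was -0.57 with all libraries (edgeR adjusted p = 0.319) and -0.015 without static 3. Its exons overlap those of Slc5a3 on the same strand, so reads of these genes may not be told apart.

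Within each group the members varied with the library. Relative to each gene's mean over the 6 libraries, the median log2 deviation of members was -0.18, -0.32 and -0.087 in the 3 stretched libraries, by replicate number, and 0.36, 0.31 and -0.034 in the 3 static ones. Stretched 2 held the lowest value of all 6 libraries for 49 of 78 members, while static 1 held the highest for 40 and static 2 for 26. Static 3 was the lowest static library for 63 members. The corresponding medians over all tested genes were between -0.014 and 0.0015. Proliferation markers were in sum at 409, 363 and 542 CPM, by library total alone, in the stretched libraries and 596, 566 and 609 in the static libraries, with 0 of 10 called by edgeR, 3 lower at an unadjusted p under 0.05 and 3 lower in DESeq2; their part in the result was not tested.

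**Figure D3:**
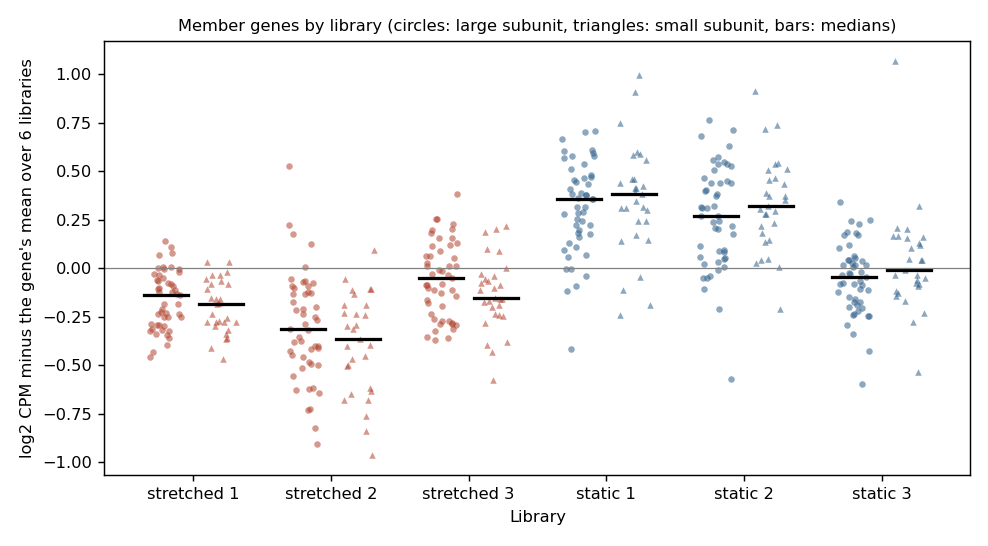
Log2 CPM of each member minus its mean over the 6 libraries (vertical axis), by library, with circles for large and triangles for small subunit genes and bars for medians. The medians of both subunits are lowest in stretched 2, highest in static 1 and static 2, and near 0 in static 3.

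The members were also grouped by the place of the protein. Of 46 members with a bacterial counterpart 6 were called lower (median log2 fold change -0.41), and of 31 without one 4 were (-0.48), beside the 5.38% of all tested genes. The small subunit proteins without a bacterial counterpart had the lowest median, -0.58 over 10 genes, of which 3 were called lower. The large subunit proteins with a bacterial counterpart had the highest, -0.31 over 30 genes, of which 4 were called lower. Counting Mrps30 and Mrps18a with the large subunit, where their proteins lie, and leaving out Mrps36 gave 5 of 51 large and 5 of 26 small subunit genes called lower, with medians of -0.35 and -0.48. This grouping was made after values had been seen and carries no test.

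Levels between genes were compared as FPKM, reads scaled by transcript length and library total. The members' mean FPKM over the 6 libraries had a median of 20.9, against 8.43 for all tested genes, and ran from 4.42 (Mrpl19) to 130 (Mrpl52). After Mrpl52 the highest were Mrpl30 (76.0), Mrps21 (71.6), Mrpl20 (68.8) and Mrpl33 (58.4), and after Mrpl19 the lowest were Mrpl17 (5.40), Mrpl35 (5.45) and Mrps25 (6.05). Mrpl30 and Mrps21, next to each other in this order, overlapped over the libraries, at 68.3 to 85.6 FPKM and 56.2 to 86.9 FPKM. Mrpl52, at 89.2 to 175 FPKM, lay above both in every library.

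The size of the fold change differed with the level among members, and the count of calls did not. The 26 members of lowest FPKM (up to 15.8) had a median log2 fold change of -0.56, and in 18 of them the groups did not overlap with the stretched libraries lower. The middle 26 had -0.41 and 13, and the 26 of highest FPKM (from 26.5) had -0.17 and 6. The members called lower numbered 3, 4 and 3 in these groups (11.5, 15.4 and 11.5%). Of all tested genes in the same FPKM ranges 7.43, 7.43 and 6.41% were called lower. No test was made of a trend with level. The order rests on the mean over all 6 libraries, so a gene's fall itself moves it towards the lowest group. All tested genes in the same FPKM ranges had medians of -0.033, -0.062 and 0.00073, with 22.4, 23.0 and 20.2% of them non-overlapping and lower. Among the most abundant members, Mrpl52 had a log2 fold change of -0.18 (edgeR adjusted p = 0.66), Mrps21 of -0.075 (0.74) and Mrpl33 of -0.075 (0.731), while Mrpl20 was called lower.

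Summed FPKM of the large subunit genes was 1153, 970 and 1291 in the stretched libraries and 1714, 1626 and 1354 in the static libraries. For the small subunit genes it was 544, 439 and 602, and 863, 833 and 717. Both sums were lower in every stretched library than in every static library, on a scale relative to the library's total counts. Scaled by library size alone, all tested genes had a median log2 fold change of -0.19. The TMM factors, 1.005 in stretched 3 and 1.107 in static 3, were not applied to these sums. Dividing by them would place the large subunit sum of stretched 3 above that of static 3. The ratio of the large to the small sum was 2.12, 2.21 and 2.15 in the stretched and 1.99, 1.95 and 1.89 in the static libraries, with means of 2.16 ± 0.0458 and 1.94 ± 0.0503 (SD, n = 3 each). The small subunit sum was thus the one further down, also without Mrpl14 (means of 2.07 and 1.90) and with genes assigned by place (2.56 ± 0.0723 and 2.28 ± 0.0569). No test was made on these sums, which are scores over the members.

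**Figure D4:**
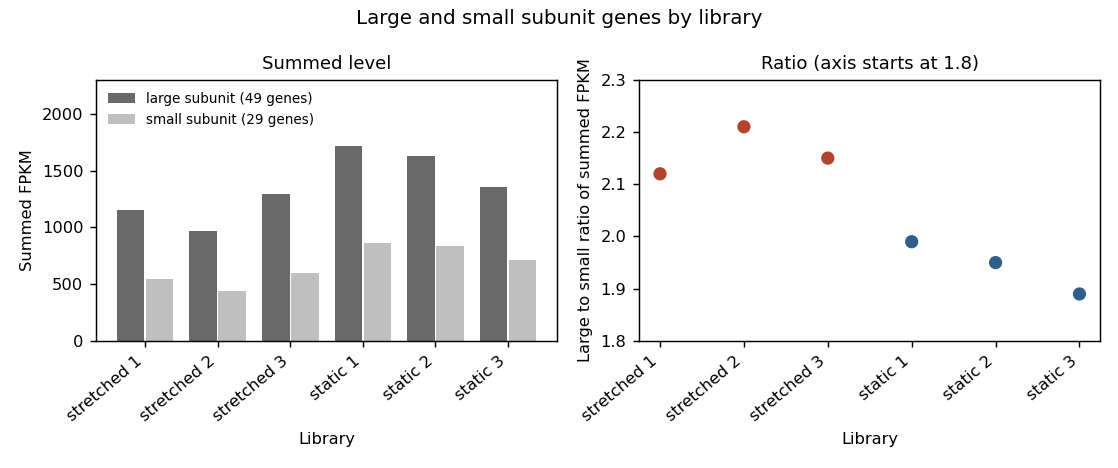
Summed FPKM of the large and small subunit genes in each library (bars, left) and the ratio of the sums (points, right, axis starting at 1.8). The 3 stretched libraries have ratios from 2.12 to 2.21 and the 3 static libraries from 1.89 to 1.99.

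The deposited transcript table split the 78 members into 164 transcripts, of which 125 were tested among 29604. Of these, 0 passed edgeR's test, where 0.0% of all transcripts were called lower and 0.00338% higher, so the transcript fit made next to no calls on any gene. At an unadjusted p under 0.05, 32 member transcripts were lower and 1 higher, and their median log2 fold change was -0.43 (-0.0023 over all). In Mrps2 the transcript with 70.4% of the counts was at 13.9 CPM in the stretched and 30.0 in the static group on average (log2 fold change -1.11, adjusted p = 0.101), and the other, with 29.6%, at 8.82 and 10.0 (-0.18, 0.862). In Mrpl27, whose gene-level value was -0.15, the main transcript went from 16.5 CPM in the static to 21.3 in the stretched group (0.37, adjusted p = 0.356) and a computationally predicted one from 12.0 to 3.97 (-1.59, 0.197). Of 32 members with more than 1 tested transcript, 10 had transcripts of opposite sign.

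The rest of the pathway was read from lists of genes. Beside the counts called in them stand the shares of all tested genes, 5.38% called lower and 6.55% higher. Of 5 mitochondrial ribosome proteins whose symbols lie outside the pattern, all 5 had negative values and 1, Gadd45gip1 of the large subunit, was called lower. It was at 15.4, 13.4 and 16.6 CPM and at 24.4, 20.5 and 22.4 CPM, with a log2 fold change of -0.57 ± 0.15 (edgeR adjusted p = 0.0491, and 0.0661 with the block). Ptcd3 of the small subunit had -0.79 (adjusted p = 0.0659) and Dap3, its GTPase, -0.10 (0.639).

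Among 31 assembly and rRNA modification genes 2 were called lower (6.45%) and 1 higher, and the median was -0.44. The share called lower was near the 5.38% of all tested genes. Rcc1l, which belongs to a module for pseudouridine formation in the large subunit RNA, was at 5.48, 3.95 and 5.35 CPM and at 17.2, 15.6 and 8.83 CPM (log2 fold change -1.49 ± 0.29, edgeR adjusted p = 0.0251, and 0.043 with the block). Fastkd2, which binds the large subunit RNA, was at 8.97, 4.36 and 6.90 CPM and at 20.0, 19.8 and 11.7 CPM (-1.34 ± 0.32, adjusted p = 0.0388, and 0.0534 with the block). In both genes every stretched library was below every static library. Afg3l2, a protease of the inner membrane that matures Mrpl32, rose instead, from 58.3, 61.0 and 37.1 CPM in the static libraries to 101, 125 and 90.7 CPM in the stretched libraries (1.02 ± 0.22, adjusted p = 0.0319, and 0.0282 with the block).

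Of 17 translation factors 1 was called lower (5.88%), near the 5.38% of all tested genes. This was Lrpprc, which with Slirp protects mitochondrial messenger RNAs. It was at 26.1, 17.4 and 24.2 CPM and at 49.2, 41.9 and 31.3 CPM (log2 fold change -0.86 ± 0.22, edgeR adjusted p = 0.0477, and 0.0586 with the block). Its partner Slirp was at 23.9, 26.4 and 25.4 CPM and at 18.8, 18.9 and 13.9 CPM, higher in every stretched library without passing the test (0.55, adjusted p = 0.0648). The elongation factor Tufm had -0.29 (0.204), and the median of the list was -0.34.

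Of 16 genes of mitochondrial transcription and the mitochondrial genome 4 fell, with a list median of -0.35. Polrmt, the mitochondrial RNA polymerase to which Mrpl12 binds, was at 13.1, 10.8 and 12.0 CPM in the stretched libraries and at 18.7 CPM in each static library (log2 fold change -0.65 ± 0.14, edgeR adjusted p = 0.0342). Elac2, which cuts tRNAs from their precursors, had -1.15 (0.0383), Polg, the DNA polymerase, -0.49 (0.0491), and Supv3l1, a helicase, -0.63 (0.0493). Tfam, the packaging factor of mitochondrial DNA, had -0.27 (0.215). Of 17 genes of import and mass 3 were called lower (17.6%), with a list median of -0.45. They were Timm50 (-0.90, edgeR adjusted p = 0.0342), Phb2 (-0.77, 0.0406) and Tomm22 (-0.46, 0.0485). With the replicate block 0 of these 7 genes passed in edgeR (adjusted p from 0.0586 to 0.0843), and DESeq2 called all of them (0.00186 to 0.0138).

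Among 8 regulators of mitochondrial gene expression 1 fell, Pprc1, a coactivator of the PGC-1 family. It was at 39.5, 29.9 and 27.7 CPM and at 90.6, 90.3 and 54.2 CPM (log2 fold change -1.28 ± 0.24, edgeR adjusted p = 0.0241, and 0.0261 with the block). Nrf1, Gabpa and Yy1, whose motifs were searched above, had -0.048, 0.11 and -0.091 (adjusted p 0.877, 0.641 and 0.64), and their groups overlapped. Myc was at 42.5, 24.6 and 47.2 CPM and at 91.9, 78.1 and 33.4 CPM, so static 3 lay among the stretched libraries (-0.83, adjusted p = 0.189).

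**Figure D5:**
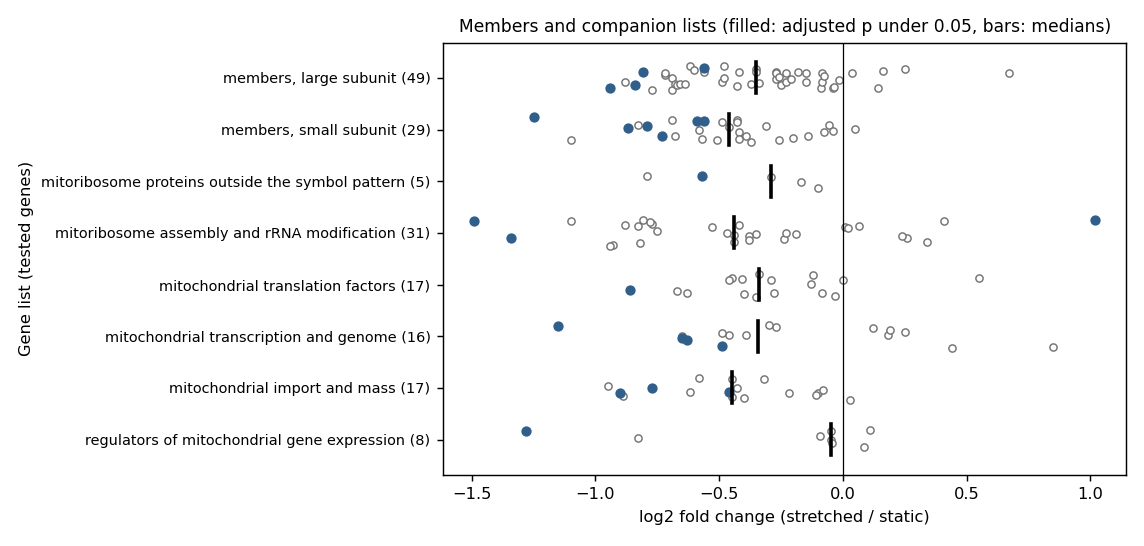
Log2 fold change (horizontal axis) of every tested member and companion gene, by list, with the number of tested genes in brackets, filled points for an edgeR adjusted p under 0.05 and bars for medians. List medians lie between -0.29 and -0.46 except for the regulators, at -0.049, and Afg3l2 is the filled point on the right at 1.02.

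The calls in these lists also turned on single libraries. Without static 3, where edgeR called 15.4% of all tested genes lower, it called 11 of the 31 assembly genes lower and 2 higher, 6 of the 17 translation factors lower and 1 higher, and 11 of the 17 import genes lower. In the same fit the transcription and genome list kept its count, with 4 of 16 lower, and had 1 higher. Without stretched 1, stretched 2, static 1 or static 2 it called 0 in any of the 6 lists. Set beside these lists, 75 tested cytosolic ribosomal protein genes had a median of -0.033 with 0 called by edgeR or DESeq2 (1 lower and 1 higher at an unadjusted p under 0.05). The 77 nuclear genes for oxidative phosphorylation subunits had -0.13 with 0 called by edgeR (11 lower and 2 higher unadjusted, 4 lower in DESeq2). The 20 mitochondrial aminoacyl-tRNA synthetase genes had -0.40 with 2 called lower (10.0%, against 5.38% of all tested genes). They were Sars2 (-1.01, edgeR adjusted p = 0.0235) and Yars2 (-0.87, 0.042). With the replicate block Sars2 kept its call (adjusted p = 0.0408) and Yars2 did not (0.0667). The differences between the lists were not tested.

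In the genome, 25 of the 78 members (32.1%) lie head to head with another protein-coding gene, with start sites within 500 bases (GENCODE, build GRCm38), against 13.1% of 12677 tested protein-coding genes. Mrpl46 and Mrps11 share such a region with each other, with log2 fold changes of -0.49 each. Of 22 tested neighbours that are not members, 2 were called lower, Sars2 beside Mrps12 (-1.01) and Eme2 beside Mrps34 (-1.23, edgeR adjusted p = 0.0387), and 1 higher, Klc4 beside Mrpl2 (0.83, adjusted p = 0.0477). Over all tested genes 5.38% were called lower and 6.55% higher, so counts this small say nothing particular about neighbours. The neighbours' median was -0.25. Mrps18b, the member with the largest fall, starts 45 bases from Ppp1r10, which had -0.18 (adjusted p = 0.585). Exons of 28 members overlap a gene on the other strand and those of 8 a gene on the same strand. These include 7 of the 10 called lower (Mrpl3, Mrpl9, Mrpl12, Mrps7, Mrps18b, Mrps27 and Mrps30), and also Mrpl14. The share of all tested genes with such an overlap was not counted, so these counts carry no comparison. Since the labels do not say whether strand was used in counting, reads inside the shared stretches of exon may not be told apart.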

How the data were processed

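RNA from 6 macrophage libraries was measured. Per the labels' protocols, libraries were made from 1.3 μg of total RNA with a SMARTER mRNA kit; strandedness is not stated. The submitters' processing notes name the builds GRCm38 and mm10; which aligner and counter they used is not given in the sources used here. The authors deposited estimated counts per gene and per transcript and, beside them, expression values that were read as FPKM: dividing counts by these values and by the library total gave the same length in all libraries within a ratio of 1.1 for 96.2% of 6802 genes above 5 FPKM. Another 4 averaged columns of the gene table were not used.

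Estimated counts were rounded and tested with edgeR 4.0.16 (R 4.3.3; TMM scaling, filterByExpr with a minimum count of 10, quasi-likelihood test, Benjamini-Hochberg over all tested genes, threshold 0.05). DESeq2 1.42.0, limma 3.58.1 on log2 FPKM with pseudocounts of 1 and 0.1, other scalings, no filter, a replicate block and left-out libraries were the alternatives. The fits were tested on simulated counts without an outlying library or a replicate effect, so that test does not bear on either. Same-numbered stretched and static libraries deviated together (correlations of 0.286, 0.183 and 0.182 across genes), although the labels state no pairs. The reported calls come from the fit without a replicate block, so they do not use this pairing. Blocked values stand beside the called members and list genes. No libraries agreed within sampling noise. Called members, the members of lowest and highest level and of smallest p in each subunit, those with the largest rise and fall, and the Mrps18 family were named by rule, and from each companion list up to 3 genes that passed; Mrpl10, Mrpl11, Mrpl21, Mrpl24, Mrpl27, Mrpl32, Mrpl33, Mrpl35, Mrpl39, Mrpl46, Mrpl50, Mrpl53, Mrpl58, Mrps6, Mrps11 and Mrps28, Supv3l1, the list genes that did not pass and the neighbouring genes were added after their values were seen. The members and all lists were chosen with earlier results of these data known. The cell type markers that edgeR called were named after their values were seen. Mitochondrially encoded genes were not analysed here.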

Additional observations from a re-analysis of the deposited data

How the results depend on the processing

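Of all 78 members, 12 changed sign under at least 1 alternative, 0 of them called lower in the analysis as reported, and 2 of these are among the 21 named by rule. Mrpl30 turned to -0.029 with library size alone, -0.057 with limma on log2(FPKM + 1) and -0.058 with a pseudocount of 0.1. Mrps36 turned to -0.14, -0.14 and -0.15 under these, and ran from -0.087 to 0.12 with a library left out. Mrpl39 ran from -0.087 to 0.22, Mrpl53 from -0.21 to 0.25 and Mrpl10 from -0.23 to 0.068. The median log2 fold change of members was negative under every alternative run.

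Members called lower numbered 10 with TMM and 23 with library size alone, 25 in DESeq2, 17 and 19 in limma (pseudocounts 1 and 0.1), 1 with the replicate block, 50 without stretched 3 and static 3, and 0 to 38 with a library left out; members called higher numbered 0, and 1 in DESeq2 and without stretched 3 and static 3 (0 to 1 with a library left out). For the large subunit the lower counts were 4, and in the same order 13, 15, 9, 11, 0, 29 and 0 to 22, with 1 higher in DESeq2 and without stretched 3 and static 3 (0 to 1 with a library left out). For the small subunit they were 6, with 10 for library size alone, 10 in DESeq2, 1 with the block, 21 without stretched 3 and static 3 and 0 to 16 with a library left out. The block left 1 of the 10 members called lower past the threshold; the other 9 had adjusted p-values of 0.0503 to 0.0795. Among named members, Mrpl9 and Mrps30 lost the call without the filter (0.056 and 0.0556) and Mrps27 with upper quartile scaling (0.052).

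Library size alone moved the medians to -0.60 for members, -0.53 for large and -0.65 for small subunit genes, with -0.19 for all genes. The large subunit median was also -0.54 and the small subunit median -0.64 in limma with a pseudocount of 0.1, and the large subunit median -0.56 without stretched 3 and static 3. The ratio of large to small sums was 2.07 in the stretched group without Mrpl14, and 2.56 and 2.28 by place, settings chosen after the data had been seen. Leaving out a library also leaves fewer degrees of freedom; beyond that, the cause of these changes was not tested. Each group had 3 libraries. Over all genes, libraries of a group differed by more than counting error (chi-square per gene from 16.4 to 115). For single members spread and counting error were not compared.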
